A study of Mus musculus with 56 samples.

Results

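Ribosome footprints were sequenced from kidneys of C57BL/6 mice labelled 3, 20 and 32 months old, in a study of how translation differs with age in kidney and liver. The comparison described here is between 2 sets of kidney footprint libraries formed from the order of their names. The 10 kidney footprint names were sorted as text, which places 20m names before 32m names and these before 3m names. The middle libraries are places 5 to 7, libraries 2 and 3 labelled 32 months and library 1 labelled 3 months, named 32m_2, 32m_3 and 3m_1 (n = 3). The first libraries are places 1 to 4, libraries 1, 2 and 3 labelled 20 months and library 1 labelled 32 months, named 20m_1, 20m_2, 20m_3 and 32m_1 (n = 4), and values are given in these orders. The comparison thus takes in 7 of the 10 kidney footprint libraries, out of 56 footprint and RNA libraries of the series. Libraries 3m_2, 3m_3 and 3m_4 were outside it.

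The sets mix labelled ages, and 32 months is the only labelled age found in both. They were selected on measured values of these libraries: the split was proposed with their levels of genes known, under the idea that labels had been displaced along the sorted names. No age is assigned to either set here, and whether labels were displaced was not tested. Since the choice counts as having used every footprint value below, all differences are given as a description of these 7 libraries. The count of genes that pass a threshold is no evidence for the split. The series text gives 2 animals at 32 months, whereas 3 kidney footprint libraries carry that label, so n counts libraries and not animals, and the spread between them may be partly technical. All groups share the strain, and the labels give no treatment.

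Ribosome profiling sequences the stretches of mRNA that ribosomes shield from nuclease, so a count follows both the amount of a transcript and how many ribosomes it carries. The kidney is mostly tubule epithelium, with glomeruli, vessels and a sparse population of resident immune cells, and it lies in fat. Plasma cells that secrete antibody, macrophages and T cells gather in kidney tissue with injury and with age, and tubule cells under stress switch on genes such as Havcr1, Lcn2 and Vcam1. The proximal tubule of mice is also under androgen control, and clock genes cycle through the day in kidney cells.

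Total counts ran from 10659589 to 30517983 in the middle libraries and from 10388818 to 20085045 in the first libraries, the deepest being library 1 labelled 3 months. Levels are CPM, a gene's count scaled to the same total in every library. Kidney markers matched the tissue label: Kap, an androgen-regulated proximal tubule gene, had 16218, 18772 and 17960 CPM in the middle libraries and 19871, 20282, 23354 and 19278 CPM in the first. Umod, the main urinary protein of the thick ascending limb, had 4918, 6057 and 5228 CPM against 4870, 3712, 4216 and 4575 CPM, and Alb, the main plasma protein of hepatocytes, did not exceed 23.6 CPM in any of the 7. Among the RNA libraries that carry these 7 labels, 6 had more Alb than Kap and 1 had more Kap than Alb, so RNA was not used. Library 3m_2, outside the comparison, correlated less with the rest of the kidney footprint libraries across genes (median r of 0.896) than any of the 7 compared libraries did (0.980 or more).

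Of 14194 genes tested with the quasi-likelihood test of edgeR, 723 were called at an adjusted p under 0.05, which is 5.09% of them. The middle libraries were higher in 466 (3.28%) and lower in 257 (1.81%). The ranges of the sets did not overlap in 1465 genes with higher (10.3%) and 1295 genes with lower values (9.12%) in the middle libraries. The median size of the log2 difference was 0.65 over the genes called higher and 0.49 over those called lower, and 118 and 42 of them differed by 1 log2 unit or more. The median over all genes was -0.00389. Before adjustment 3023 of the 14194 genes had p under 0.05, and DESeq2, an alternative tool, called 869. Counts of list members below are to be read against these shares of all genes. With all 10 kidney libraries in the fit, library 3m_2 included, 2 genes were called. Leaving out library 1 labelled 3 months left 312 calls (225 higher, 87 lower), and leaving out library 2 labelled 32 months left 415 (290 and 125). Without library 1 labelled 20 months 555 were called, without library 3 of that age 478, without library 1 labelled 32 months 464, and without library 3 of that age 500. The rule for named genes gave 100 genes, of which 46 were called, and 20 of these kept their call whichever library was left out. Most of the 100 were picked because the ranges of the sets did not overlap, so for them that is not a result. Leaving out 1 library does not bring such ranges to overlap, and a call that held is no evidence for the split.

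Antibody transcripts were among the highest differences. Igha, the heavy chain of secreted IgA, had 60.9, 45.1 and 82.0 CPM in the middle libraries and 4.43, 2.89, 1.44 and 3.17 CPM in the first, a log2 difference of 4.33 ± 0.33 (SE). Igkc, the kappa light chain's constant gene, had 177, 80.9 and 168 against 3.09, 6.90, 14.0 and 7.28 CPM (4.28 ± 0.55). Every middle library lay above every first library in both genes, which the rule for the highest differences required. Library 3 labelled 32 months was the lowest of the middle ones. Ighm, the heavy chain of IgM, had 291, 118 and 278 CPM in the middle libraries and 8.56, 22.0, 35.8 and 21.6 CPM in the first (3.43 ± 0.58). Jchain, which links IgA and IgM into polymers, had 31.5, 18.2 and 30.0 against 1.29, 1.85, 6.06 and 2.59 CPM (3.31 ± 0.49). Within the first libraries, library 3 labelled 20 months was the highest for Igkc, Ighm and Jchain and the lowest for Igha. Ighg2b, an IgG heavy chain, averaged 11.5 ± 5.77 CPM in the middle libraries and 0.584 ± 0.560 CPM in the first (SD), with a log2 difference of 4.47 ± 0.64. Constant segments of antibody genes share stretches of sequence, so reads may be assigned to the wrong one and single values are uncertain. The calls of Igha and Ighg2b held with any 1 library left out. Those of Igkc and Jchain ended without 20m_2, 32m_1, 32m_2 or 3m_1, and that of Ighm without any library other than 32m_3.

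Of 18 B and plasma cell markers, 15 passed the filter on low counts. The middle libraries were higher in 6 of these and lower in 0, against 3.28% and 1.81% of all genes, with a median log2 difference of 0.89. The 6 were Igha, Igkc, Ighm, Jchain, Pou2af1, a transcriptional coactivator of B cells, and Mzb1, a chaperone of plasma cells. Pou2af1 differed by 1.93 ± 0.32 and Mzb1 by 1.16 ± 0.29 log2 units (SE). The other 9 were not called. Among these, Cd79a differed by 0.92 ± 0.58, Fcmr by 0.89 ± 0.44, Cd22 by 0.80 ± 0.47 and Ighd by 0.70 ± 0.45. Cd79b differed by 0.65 ± 0.25, and its middle libraries lay wholly above the first. The light chain genes Iglc1 and Iglc2 differed by 0.64 ± 1.10 and 0.79 ± 0.73, Xbp1 by 0.24 ± 0.10 and Derl3 by -0.03 ± 0.44. The summed level of the list was 742.2, 407.4 and 764.4 CPM in the middle libraries and 165.9, 184.3, 194.9 and 184.2 CPM in the first. Xbp1 averaged 161 ± 26.5 CPM in the middle libraries and 137 ± 8.13 CPM in the first (SD), most of the sum in the first. In whole tissue, more cells of a type and more transcript per cell cannot be told apart. Pigr, the epithelial receptor that carries polymeric IgA and IgM into the lumen, was looked up after its values were seen: it had 533, 369 and 308 CPM in the middle libraries and 153, 94.5, 138 and 113 CPM in the first (1.69 ± 0.23).

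Macrophage transcripts were higher in the middle libraries by a smaller factor. Of 20 markers 18 were tested, and 12 were called higher and 0 lower, against 3.28% and 1.81% of all genes (median 0.67). Lyz2, the lysozyme of macrophages and neutrophils, had 39.0, 40.2 and 48.3 CPM in the middle libraries and 28.0, 23.2, 25.1 and 20.8 CPM in the first (0.81 ± 0.11). The ranges did not overlap, and each middle library had at least 39.0 CPM. The 3 chains of complement C1q, which tissue macrophages make, were each called, C1qa at 0.61 ± 0.14, C1qb at 0.67 ± 0.11 and C1qc at 0.75 ± 0.14. Itgam, an integrin of myeloid cells, differed by 1.54 ± 0.34 at a level of 1.00 ± 0.111 CPM in the middle libraries and 0.328 ± 0.0826 CPM in the first (SD). Csf1r, the growth factor receptor of macrophages, differed by -0.0252 ± 0.067, and Cd163, a haemoglobin scavenger receptor, by -0.76 ± 0.32. Neither was called. The call of Itgam ended without any 1 of the middle libraries, and that of Lyz2 held throughout. The mean over the 20 markers of log2(CPM + 1) ran from 3.607 to 3.728 in the middle libraries and from 2.971 to 3.342 in the first.

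T and natural killer cell markers were scarce. Of 16, 8 passed the filter, 4 of them were called higher and 0 lower, against 3.28% and 1.81% of all genes (median 1.06). Trac, the constant part of the T cell receptor alpha chain, had 2.06, 2.25 and 2.88 CPM in the middle libraries and 1.19, 0.803, 1.25 and 1.30 CPM in the first (1.11 ± 0.25). Ccl5, a chemokine of T and natural killer cells, differed by 1.51 ± 0.37, and Nkg7, a granule protein of these cells, by 1.41 ± 0.37. Cd3e, a signalling chain of the T cell receptor, differed by 1.36 ± 0.36, with ranges that overlapped. The call of Trac ended without 3m_1, that of Ccl5 without any library other than 20m_3 or 32m_3, and that of Nkg7 without any library other than 20m_2 or 32m_3. Of 10 neutrophil markers only Lcn2, which injured tubules also make, passed the filter. It had 4.49, 15.8 and 11.1 CPM in the middle libraries and 4.28, 1.77, 1.35 and 1.44 CPM in the first (2.13 ± 0.55) and was not called. Its lowest middle library, 32m_2, and its highest first library, 20m_1, were almost level. It was called higher without 20m_1, without 32m_2, and by DESeq2, an alternative tool.

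**Figure D1:**
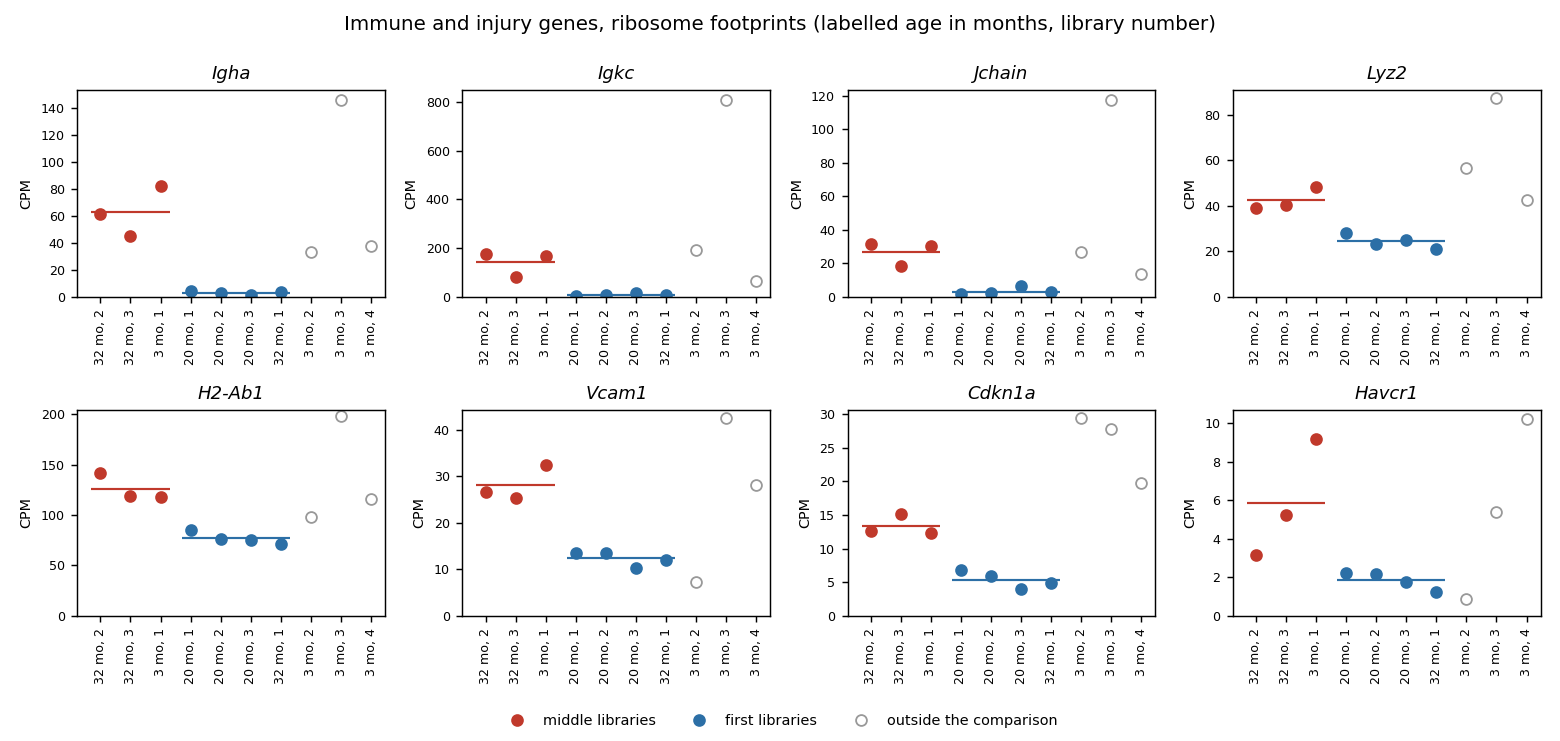
Levels of 8 immune and injury genes in each kidney footprint library, in CPM on linear axes from 0. Red points are the 3 middle libraries, blue points the 4 first libraries, open points the 3 outside the comparison, and lines the means of the sets; the red points lie above the blue ones in each panel.

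Genes of class II antigen presentation were higher together. Of 7, 7 were called higher in the middle libraries, against 3.28% of all genes, with log2 differences from 0.57 to 0.71 (median 0.68). Of the 10 class I genes on the list 2 were called higher (median 0.24). H2-Ab1, the beta chain of the class II molecule I-A, had 142, 119 and 118 CPM in the middle libraries and 84.9, 76.2, 75.6 and 71.3 CPM in the first (0.71 ± 0.0811). Ciita, the transcriptional coactivator that switches on class II genes, had 14.7, 12.3 and 11.2 against 8.17, 7.54, 8.37 and 6.85 CPM (0.71 ± 0.13). The ranges did not overlap for either gene. H2-DMb1, a chain of the molecule that loads peptides onto class II, averaged 16.3 ± 2.73 CPM in the middle libraries and 10.1 ± 0.691 CPM in the first (SD, 0.69 ± 0.12). H2-Aa differed by 0.58 ± 0.0807, H2-Eb1 by 0.57 ± 0.0761 and Cd74, the invariant chain, by 0.64 ± 0.0806. The calls of H2-Ab1, Ciita and H2-DMb1 held with any 1 library left out. Macrophages, dendritic cells and B cells make class II molecules. Of the macrophage markers 12 of 18 were called higher, and the part of each cell type in the class II difference was not tested.

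Promoters of class II genes carry conserved boxes, of which the Y box is an inverted CCAAT sequence. The letters TGATTGG, a form of that box, were searched on both strands in RefSeq promoters of GRCm38.p6 that reach from 250 bases before to 50 bases after each gene start. They occur in 7.82% of 32851 promoters. Among the 7 class II genes 4 had a promoter in the table, and 3 of those hold the letters. These 3 promoters are printed because their genes were called higher together, with the match in capitals. The match starts 50 bases before the gene start in H2-Aa (chr17:34287774-34288073, minus strand), 61 bases in H2-Eb1 (chr17:34305617-34305916, plus strand) and 63 bases in H2-DMb1 (chr17:34152941-34153240, plus strand).
H2-Aa: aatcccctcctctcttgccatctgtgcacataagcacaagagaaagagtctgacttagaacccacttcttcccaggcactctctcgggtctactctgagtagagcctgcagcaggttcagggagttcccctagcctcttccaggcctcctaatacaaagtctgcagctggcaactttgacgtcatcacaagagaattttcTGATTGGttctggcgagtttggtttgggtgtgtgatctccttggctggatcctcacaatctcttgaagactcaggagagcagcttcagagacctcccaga
H2-Eb1: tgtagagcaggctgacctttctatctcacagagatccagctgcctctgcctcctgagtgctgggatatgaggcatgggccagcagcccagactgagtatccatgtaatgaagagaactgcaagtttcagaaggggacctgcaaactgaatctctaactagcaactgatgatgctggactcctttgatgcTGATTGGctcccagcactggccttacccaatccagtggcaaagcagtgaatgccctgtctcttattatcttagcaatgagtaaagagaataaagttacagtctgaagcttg
H2-DMb1: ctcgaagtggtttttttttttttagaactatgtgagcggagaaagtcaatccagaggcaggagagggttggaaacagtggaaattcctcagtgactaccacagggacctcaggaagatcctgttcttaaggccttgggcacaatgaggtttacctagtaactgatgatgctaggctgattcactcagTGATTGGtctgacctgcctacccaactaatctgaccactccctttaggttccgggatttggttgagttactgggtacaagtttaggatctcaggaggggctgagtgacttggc

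Complement genes were called higher in 8 of 18, and 0 were called lower, against 3.28% and 1.81% of all genes (median 0.51). Among these, beside the C1q chains, were C7, a component of the membrane attack complex, Cfi, the protease that inactivates C3b, and the protease genes C1s1 and Cfb. C7 had 24.6, 33.6 and 32.3 CPM in the middle libraries and 16.7, 12.8, 8.76 and 14.1 CPM in the first (1.19 ± 0.17), and Cfi averaged 8.23 ± 0.955 CPM in the middle libraries and 3.87 ± 0.983 CPM in the first (SD, 1.07 ± 0.19). C3, the central component, differed by 0.29 ± 0.23 and was not called. Cfd, also on the list, is made by fat cells and had a log2 difference of -4.18 ± 0.86. Interferon response genes were called higher in 1 of 26 tested (3.28% of all genes were called higher), with a median of 0.22. That gene, Oas2, which senses double-stranded RNA, was at 1.93 ± 0.360 CPM in the middle libraries and 0.517 ± 0.301 CPM in the first (SD), and its call ended without 32m_2 or 32m_3. The calls of C7 and Cfi held with any 1 library left out.

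Kidney injury genes were called higher in 11 of 15 tested and lower in 0, against 3.28% and 1.81% of all genes (median 0.82). Havcr1, also called Kim1, a marker of proximal tubule damage, had 3.17, 5.25 and 9.21 CPM in the middle libraries and 2.24, 2.17, 1.73 and 1.23 CPM in the first (1.73 ± 0.36). The middle libraries differed among themselves, library 1 labelled 3 months having the highest value of the 7, and the call ended without any library other than 32m_2. Vcam1, an adhesion molecule, had 26.6, 25.2 and 32.4 against 13.6, 13.4, 10.2 and 12.1 CPM (1.19 ± 0.12). Ccl2, a chemokine that draws monocytes, averaged 1.03 ± 0.225 CPM in the middle libraries and 0.180 ± 0.0670 CPM in the first (SD, 2.45 ± 0.40). These values rest on 61 counts in all in the middle libraries and 11 in the first. Sox9, a transcription factor of tubule repair, averaged 2.87 ± 0.649 CPM in the middle libraries and 1.02 ± 0.188 CPM in the first (1.56 ± 0.25). Cp, the copper carrier ceruloplasmin, differed by 0.91 ± 0.14. The keratins of the list were not called, Krt8 differing by 0.19 ± 0.0894, Krt18 by -0.51 ± 0.31 and Krt19 by -1.09 ± 0.59.

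Cdkn1a, the cell cycle inhibitor p21, had 12.7, 15.2 and 12.4 CPM in the middle libraries and 6.82, 5.86, 4.04 and 4.83 CPM in the first (1.28 ± 0.15), with no overlap, and like Ccl2 it kept its call with any 1 library left out. It belongs to the injury list and to the senescence list. Of 12 tested senescence members 5 were called higher and 0 lower, against 3.28% and 1.81% of all genes (median 0.30). Among the others were Ccl2, Gdf15, a stress cytokine, and Tnfrsf1b, a receptor of tumour necrosis factor (0.81 ± 0.10). Gdf15 was at 11.1 ± 0.361 CPM in the middle libraries and 6.65 ± 0.893 CPM in the first (SD). Cdkn2a, the p16 gene, did not pass the filter on low counts. Mki67, made in dividing cells, averaged 3.71 ± 0.221 CPM in the middle libraries and 1.77 ± 0.621 CPM in the first and was called (1.11 ± 0.25), but not without 20m_3, 32m_1, 32m_2 or 3m_1. It was 1 of 26 tested cell cycle genes, a share near the 3.28% of all genes called higher.

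Matrix and fibroblast genes were called higher in 4 of 28, against 3.28% of all genes (median 0.16). These were Timp1, an inhibitor of matrix proteases (1.58 ± 0.31), the proteoglycan gene Bgn (0.51 ± 0.0786), the crosslinking enzyme gene Loxl1 (0.41 ± 0.0798) and Vim (0.33 ± 0.0784), the intermediate filament of mesenchymal cells. Bgn had 331, 370.4 and 358 CPM in the middle libraries and 285, 251, 222 and 235 CPM in the first. The fibrillar collagens were not called, Col1a1 differing by 0.22 ± 0.21 and Col3a1 by -0.31 ± 0.22. Of 9 tested smooth muscle and renin cell genes 2 were called higher, Notch3, a receptor of vascular muscle and pericytes, with 0.63 ± 0.15, and Rgs5, a pericyte gene, with 0.45 ± 0.10. The calls of Bgn and Loxl1 held with any 1 library left out. That of Timp1 ended without 3m_1, that of Notch3 without any library other than 20m_1, and that of Rgs5 without any other than 20m_1 or 3m_1.

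The gene with the smallest adjusted p among the named lower genes was Akr1c18, which reduces progesterone to an inactive steroid. It had 1.91, 0.938 and 1.41 CPM in the middle libraries and 14.9, 20.5, 13.2 and 15.4 CPM in the first (-3.46 ± 0.21), and the lowest first library was more than 10 CPM above the highest middle one. Androgen-regulated genes of the proximal tubule were called lower in 1 of 14 tested and higher in 0, with a median of -0.30. Of all genes, 1.81% were called lower and 3.28% higher. Acsm3, a medium-chain acyl-CoA synthetase, had 247, 295 and 368 against 725, 811, 873 and 964 CPM (-1.48 ± 0.15). Slco1a1, an organic anion transporter, had 52.1, 72.0 and 144 against 171, 227, 310.1 and 282 CPM (-1.45 ± 0.45) and was not called, library 1 labelled 3 months lying close to the lowest first library. Slc7a12, an amino acid transporter that is higher in female mouse kidney, had 34.5, 55.5 and 14.9 CPM in the middle libraries and 4.93, 1.12, 2.31 and 4.76 CPM in the first (3.29 ± 0.63, not called). It was the only one of the 14 with a positive difference. By DESeq2, 4 of the 14 were called, against 869 of all 14194 genes. Prlr, the prolactin receptor, had 47.6, 43.1 and 13.0 against 6.02, 3.29, 4.14 and 6.56 CPM (2.72 ± 0.55, not called). Library 1 labelled 3 months had the lowest value of the middle libraries in both Slc7a12 and Prlr, and both were called higher without it. The calls of Akr1c18 and Acsm3 held with any 1 library left out.

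Fat genes were among the lowest differences. Cfd, the fat cell protease adipsin, had 14.9, 16.1 and 4.10 CPM in the middle libraries and 389.5, 189, 123 and 77.3 CPM in the first (-4.18 ± 0.86). Adipoq, the hormone adiponectin, had 6.33, 5.07 and 2.56 against 49.2, 33.3, 20.0 and 12.7 CPM (-2.75 ± 0.63). The ranges did not overlap, but the first libraries themselves spread widely and library 1 labelled 32 months was the lowest of them in both genes. Adipoq was called lower without that library. Of 12 fat markers 3 were called lower and 0 higher, against 1.81% and 3.28% of all genes (median -2.69). These were Car3, a carbonic anhydrase of fat and muscle (-2.71 ± 0.49), Adrb3, the fat cell adrenergic receptor (-2.28 ± 0.44), and Lpl, lipoprotein lipase (-0.66 ± 0.0896). The other 9 were not called, among them Plin1 and Cidec, coat proteins of lipid droplets, with -2.75 ± 0.70 and -2.91 ± 0.71, and by DESeq2 9 of the 12 were called. The call of Car3 ended without any library other than 32m_1. The summed level of the 12 was 535.5, 711.2 and 499.9 CPM in the middle libraries and 1830, 1455, 1302 and 994.7 CPM in the first. The part of fat cell transcripts in the genes called lower was not tested. Among the libraries labelled 32 months alone the differences of Cfd and Adipoq were -2.34 and -1.17.

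**Figure D2:**
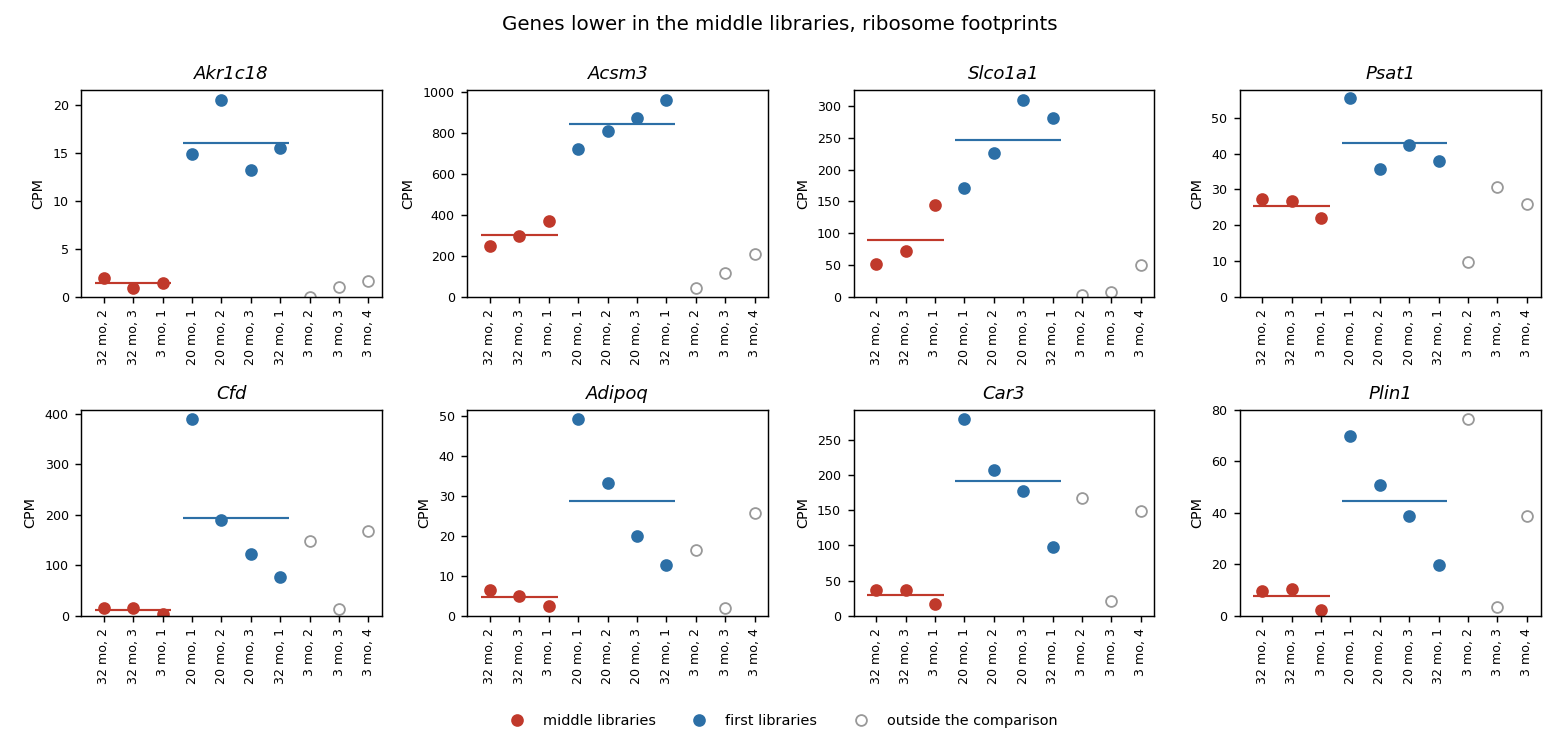
Levels of 8 genes lower in the middle libraries, in CPM on linear axes from 0, with red points for the 3 middle libraries, blue points for the 4 first libraries, open points for the 3 outside and lines for set means. Akr1c18 and Acsm3 show narrow sets far apart, and the fat genes Cfd, Adipoq, Car3 and Plin1 show wide spread among the first libraries, with 20m_1 the highest and 32m_1 the lowest of them.

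Lipid and amino acid synthesis genes were lower in part. Cholesterol synthesis genes were called lower in 2 of 19 tested and higher in 0, against 1.81% and 3.28% of all genes (median -0.22). Insig1, which retains the regulator of these genes in the endoplasmic reticulum, had 49.1, 42.0 and 34.7 CPM in the middle libraries and 61.6, 64.1, 54.3 and 56.8 CPM in the first (-0.51 ± 0.10). Each middle library lay below each first library. Psat1, an enzyme of serine synthesis, had 27.4, 26.6 and 22.0 against 55.5, 35.9, 42.5 and 38.1 CPM (-0.78 ± 0.14), and Asns, asparagine synthetase, averaged 4.73 ± 0.976 CPM in the middle libraries and 9.14 ± 2.44 CPM in the first (SD, -0.93 ± 0.21). These are targets of the stress regulator ATF4. On that list of 12 tested genes, 3 others were called higher, Ddit3, the stress factor CHOP (0.76 ± 0.16), Sesn2 (0.50 ± 0.11) and Gdf15 (0.76 ± 0.13). Of 22 tested genes of fatty acid oxidation and PPAR targets 1 was called lower and 0 higher, against 1.81% and 3.28% of all genes (median 0.12). It was Acadm, the medium-chain acyl-CoA dehydrogenase (402, 393 and 433 against 609.5, 527, 486 and 658 CPM, -0.48 ± 0.10). The calls of Insig1 and Psat1 ended without 3m_1, that of Acadm without 32m_2 or 32m_3, and that of Asns without any library other than 20m_2 or 32m_1.

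Circadian clock genes were called higher in 5 of 20 and lower in 0, against 3.28% and 1.81% of all genes (median 0.41). Cry1, a repressor of the clock, had 13.5, 12.4 and 13.4 CPM in the middle libraries and 5.33, 5.22, 4.14 and 7.14 CPM in the first (1.26 ± 0.15), and its call held with any 1 library left out. Bhlhe40, another repressor, had 164, 193 and 182 against 97.9, 113, 95.9 and 121 CPM (0.75 ± 0.0905). Also called were Per3, a period gene (0.45 ± 0.11), and Cry2, a second cryptochrome (0.51 ± 0.12), though the ranges of Cry2 overlapped. Per2, a core repressor, had 61.1, 57.0 and 81.5 against 19.0, 33.1, 28.2 and 41.9 CPM, with no overlap but a wide spread, and was called only without 20m_1 or by DESeq2. Arntl and Clock, the activators, differed by -0.36 ± 0.27 and -0.20 ± 0.10, and Dbp, an output gene, by 0.13 ± 0.23. The labels used here give no hour of tissue collection, so hour and set cannot be told apart. Among the libraries labelled 32 months alone Cry1 differed by 0.83, Bhlhe40 by 0.53, Per2 by 0.47 and Per3 by 0.11.

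The clock activators bind the E-box CACGTG, which reads the same on both strands and occurs in 7.15% of the 32851 promoters. It was looked for in the promoters of 6 clock genes, Cry1, Cry2, Per1, Per2, Per3 and Bhlhe40. Of these 6 genes 4 had a promoter in the table, and 2 of those hold the letters. They are printed as the regulatory sequence of the clock genes in the comparison, with the E-box in capitals. It starts 60 bases before the gene start in Cry1 (chr10:85185005-85185304, minus strand, GRCm38.p6) and 166 bases in Per1 (chr11:69098699-69098998, plus strand). Per1 had a log2 difference of 0.91 ± 0.31 and was not called.
Cry1: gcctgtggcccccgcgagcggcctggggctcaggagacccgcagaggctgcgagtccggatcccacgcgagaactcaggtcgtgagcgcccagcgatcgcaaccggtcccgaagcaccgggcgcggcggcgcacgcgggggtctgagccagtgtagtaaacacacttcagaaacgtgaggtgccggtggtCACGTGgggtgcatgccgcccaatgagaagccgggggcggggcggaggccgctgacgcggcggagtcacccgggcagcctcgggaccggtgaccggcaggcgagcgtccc
Per1: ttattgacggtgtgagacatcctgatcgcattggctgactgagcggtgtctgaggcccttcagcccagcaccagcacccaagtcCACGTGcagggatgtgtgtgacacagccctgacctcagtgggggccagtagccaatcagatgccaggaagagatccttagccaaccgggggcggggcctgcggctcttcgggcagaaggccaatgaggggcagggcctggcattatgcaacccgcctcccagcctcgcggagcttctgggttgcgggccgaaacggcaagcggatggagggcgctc

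**Figure D3:**
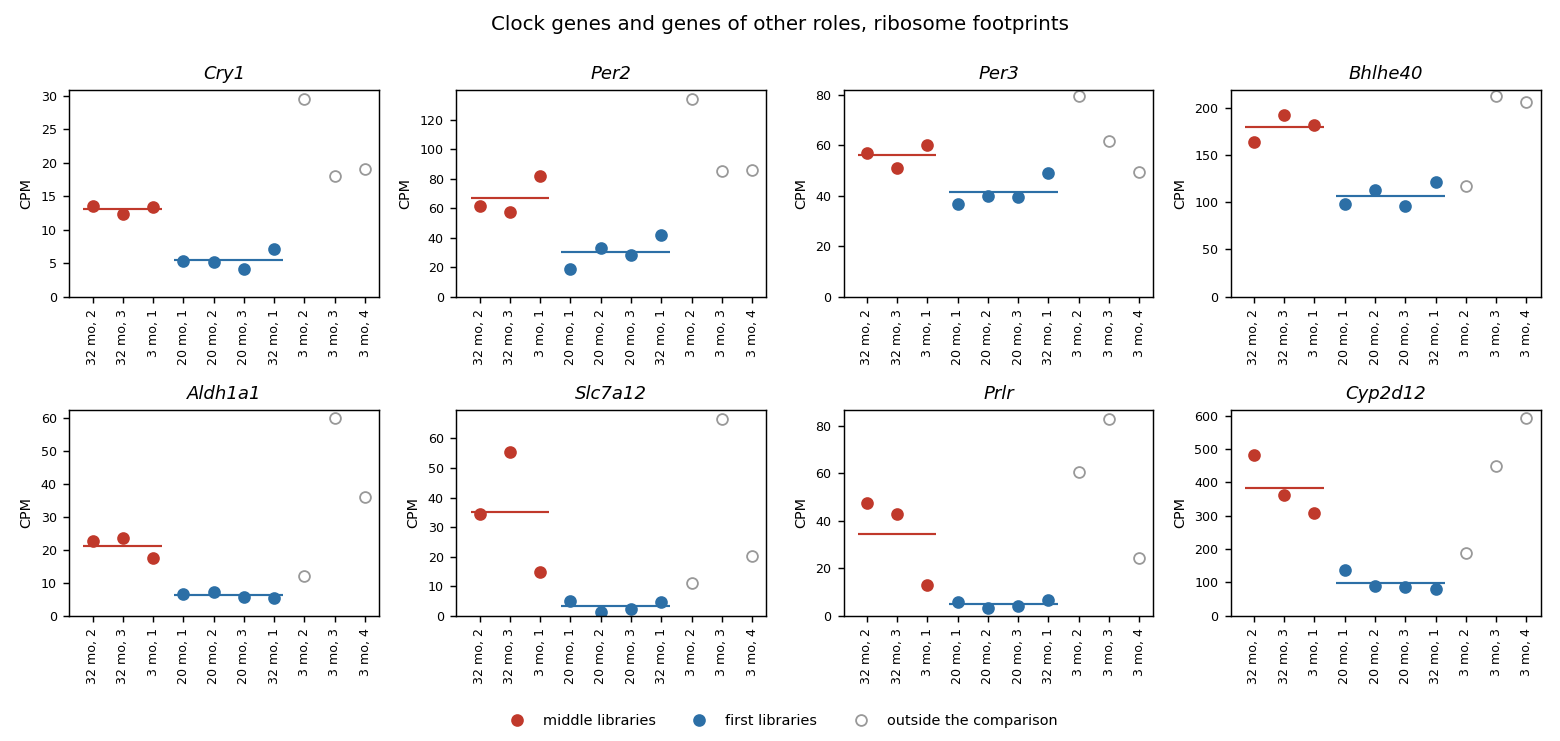
Levels of 4 clock genes and 4 further genes in each kidney footprint library, in CPM on linear axes from 0, with red points for the 3 middle libraries, blue points for the 4 first libraries, open points for the 3 outside and lines for set means. In Slc7a12 and Prlr library 1 labelled 3 months lies nearer to the first libraries than the other middle libraries do.

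Several enzymes and a protease inhibitor were among the largest differences as well. Aldh1a1, a retinaldehyde dehydrogenase, had 22.7, 23.5 and 17.6 CPM in the middle libraries and 6.57, 7.22, 5.68 and 5.33 CPM in the first (1.76 ± 0.13). Cyp2d12, a cytochrome P450, had 482, 361 and 308 against 136, 88.4, 86.7 and 80.0 CPM (1.97 ± 0.22). Serpina1a, an alpha-1 antitrypsin, had 54.6, 61.9 and 58.9 against 11.3, 5.78, 18.1 and 16.0 CPM (2.20 ± 0.33). The sets lay apart in all 3 genes, whereas library 1 labelled 20 months was the highest first library for Cyp2d12. Serpina1a and Cyp2d12 belong to families of near-identical genes, so their reads may be split with relatives. Serpina1a is on the hepatocyte list. Of the 16 tested genes of that list 3 were called higher and 0 lower, against 3.28% and 1.81% of all genes (median 0.35). The others called were Apob (0.37 ± 0.093), the protein of large lipoproteins, and Fgg (0.82 ± 0.20), a fibrinogen chain, whereas Ttr, a thyroid hormone carrier, differed by -1.18 ± 0.31 and Alb by 0.42 ± 0.24. Ugt2b38, a glucuronosyltransferase, had 259, 269 and 304 against 406, 386, 445 and 497 CPM (-0.64 ± 0.10) and was called lower. The call of Serpina1a ended without 20m_1 or any 1 of the middle libraries, and those of Aldh1a1, Cyp2d12 and Ugt2b38 held throughout.

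Among nephron segment markers, 1 proximal tubule gene was called higher and 2 distal genes were called lower. Of 24 proximal tubule markers 1 was called higher and 0 lower, against 3.28% and 1.81% of all genes (median 0.04). It was the water channel gene Aqp1 with 0.28 ± 0.0698. Of the 24, 7 had p under 0.05 before adjustment, against 3023 of all 14194 genes, and DESeq2 called 5, against 869. None (0) of 9 thick ascending limb, 8 podocyte and 14 endothelial markers was called, with medians of 0.15, 0.20 and 0.09. These lists had 2, 4 and 4 genes with p under 0.05 before adjustment, and DESeq2 called 1, 1 and 0. The call of Aqp1 ended without any 1 of the 7 libraries. Distal tubule and collecting duct markers were called lower in 2 of 17, against 1.81% of all genes, and higher in 0 (median -0.21). In 9 of the 17 the middle libraries lay wholly below the first, against 9.12% of all genes, and 10 had p under 0.05 before adjustment. The 2 called genes encode subunits of the proton pump of intercalated cells, Atp6v1g3, which had 5.15, 5.35 and 4.85 CPM in the middle libraries and 8.22, 8.75, 8.09 and 6.56 CPM in the first (-0.63 ± 0.14), and Atp6v0d2 (-0.46 ± 0.11). Slc4a1, the anion exchanger of the same cells and of red cells, differed by -0.51 ± 0.19 and was not called. The call of Atp6v1g3 ended without 32m_2 or 3m_1, and DESeq2 called 6 of the 17.

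Ribosomal, proteasome and respiratory subunits had 2 calls in all. Cytosolic ribosomal proteins had 2 of 76 called higher, against 3.28% of all genes, Rpsa (0.28 ± 0.0685) and Rpl12 (0.26 ± 0.0656), with a median of 0.17. Rpl12 had 132, 133 and 134 CPM in the middle libraries and 118, 117, 105 and 104 CPM in the first. Of the 76, 74 had a positive difference, and in 31 the ranges did not overlap, against 10.3% of all genes. Ribosomal protein genes have many processed copies in the genome, which can take reads from them. Of 32 proteasome subunits 0 were called, 3 had a positive difference and in 11 the middle libraries lay wholly below the first, against 9.12% of all genes (median -0.10). Psmd14, a deubiquitinase of the regulatory particle, had 25.5, 25.8 and 26.3 against 31.2, 29.4, 35.5 and 32.3 CPM (-0.31 ± 0.088). None (0) of 74 subunits of oxidative phosphorylation was called (median -0.00152). The ribosomal, proteasome and oxidative phosphorylation lists had 39, 7 and 2 genes with p under 0.05 before adjustment. In the proteasome list and the oxidative phosphorylation list, 1 gene each was called by DESeq2. Over all 14194 genes, 3023 had p under 0.05 before adjustment and DESeq2 called 869. DESeq2 called 7 of the 76 ribosomal protein genes, and the call of Rpsa ended without any library other than 20m_1 or 20m_2.

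**Figure D4:**
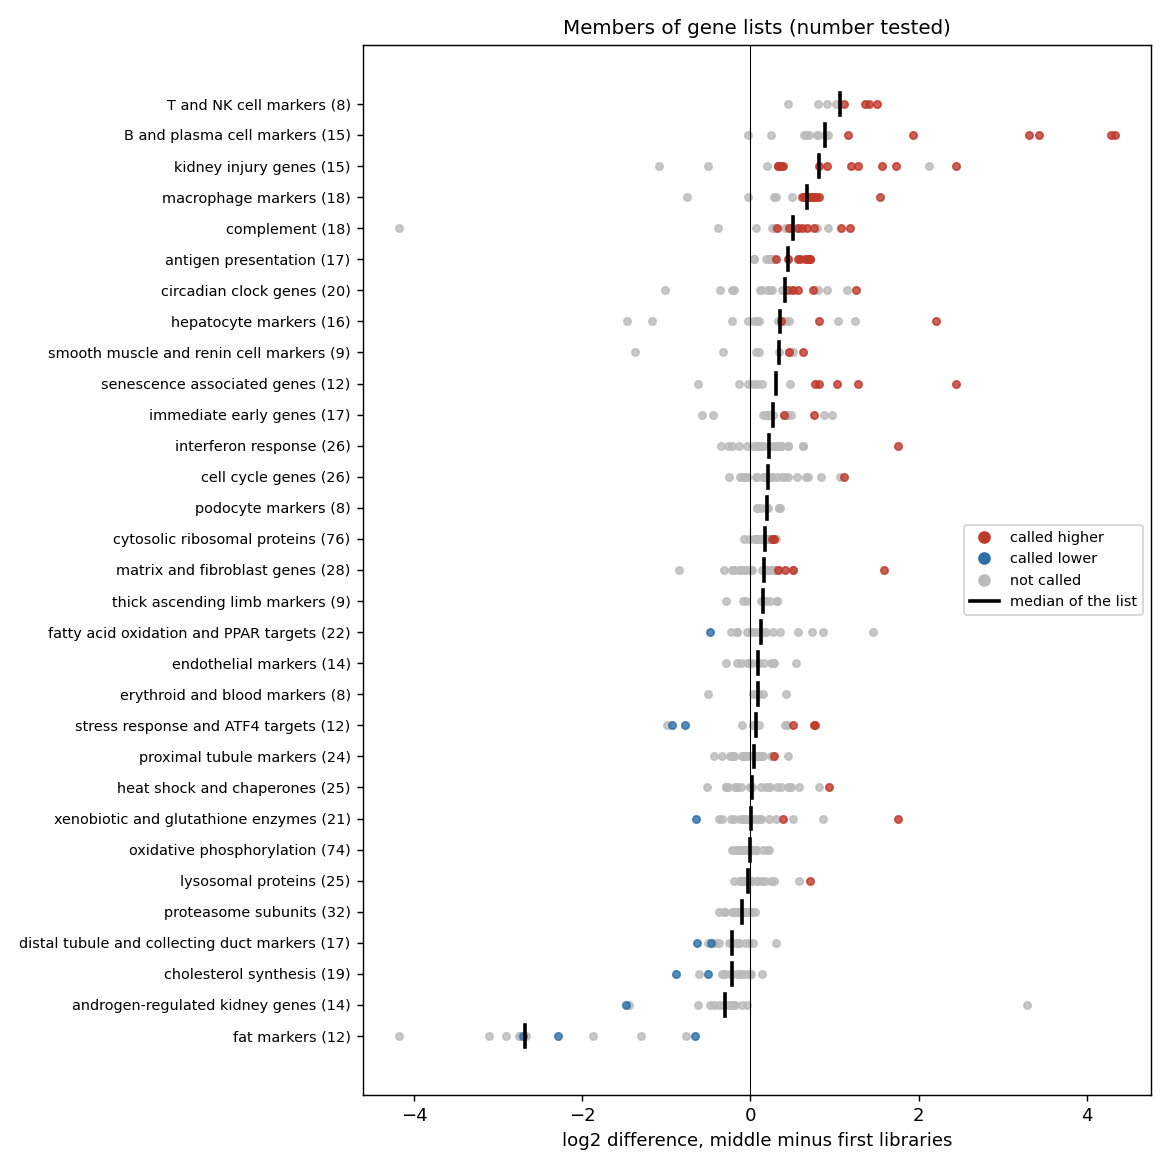
Log2 differences, middle minus first libraries, of the members of each list with at least 8 tested genes, the number tested in brackets. Points are genes, red called higher, blue called lower and grey not called, and black bars are list medians, which run from -2.69 for fat markers to 1.06 for T and natural killer cell markers.

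Calls among chaperone, early response and lysosomal genes are read against the 3.28% of all genes called higher and the 1.81% called lower. DESeq2 called 869 of the 14194 genes, and 3023 had p under 0.05 before adjustment. Of 25 heat shock and chaperone genes 1 was called higher, the inducible chaperone gene Hspa1a (19.8 ± 5.09 CPM in the middle libraries and 10.3 ± 2.75 CPM in the first, SD, 0.94 ± 0.22), and 0 lower, and DESeq2 called 4. Hspa1b, its near-identical copy, can share its reads and differed by 0.81 ± 0.37, and the call of Hspa1a ended without any library other than 20m_1 or 32m_2. Of 17 tested immediate early genes Btg2, an antiproliferative gene (0.39 ± 0.10), and Myc, a growth regulator (0.76 ± 0.19), were called higher, both calls ending without any library other than 20m_1, and DESeq2 called 6 of the 17. Of 25 lysosomal proteins Ctss, a protease of antigen-presenting cells, was called higher (22.2, 21.6 and 23.2 against 16.5, 11.6, 14.0 and 12.5 CPM, 0.71 ± 0.11), and the list median was -0.03. Of 21 tested xenobiotic and glutathione enzymes 2 were called higher, Aldh1a1 and Cyp1b1, and Ugt2b38 was called lower. Erythroid genes had 0 of 8 called (median 0.08), with 1 at p under 0.05 before adjustment and 1 called by DESeq2. Of 15 pancreas markers 1 passed the filter, Cela1, which differed by 0.25 ± 0.11 and was not called, and of 12 adrenal markers 0 passed, 5 of these having no count in any of the 7 libraries.

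The libraries labelled 32 months stand in both sets, so their contrast is the only one within a labelled age. With labelled age in the fit, the difference rests on libraries 2 and 3 against library 1 of that age. With 1 library on one side, only sizes of differences are given. The series text gives 2 animals at 32 months for these 3 libraries. The median log2 difference within that label was 0.68 over the 466 genes called higher and -0.48 over the 257 called lower, and these libraries are also part of the comparison above. Igha differed by 4.04 within the label, Lyz2 by 0.90, H2-Ab1 by 0.85, Akr1c18 by -3.40 and Acsm3 by -1.86. Fat markers had a median of -1.06 within the label, against -2.69 over all 7 libraries, and clock genes 0.13 against 0.41.

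The 3 libraries outside the comparison, 3m_2, 3m_3 and 3m_4, are given by value only. They had 32.9, 146 and 37.2 CPM of Igha, 7.27, 42.6 and 28.0 CPM of Vcam1 and 29.4, 27.8 and 19.7 CPM of Cdkn1a. Library 3m_3 had the highest value of all 10 kidney libraries for Igha and Vcam1, and 3m_2 that for Cdkn1a. Akr1c18 was at 0, 1.04 and 1.65 CPM, Acsm3 at 39.9, 116 and 207 CPM and Cry1 at 29.6, 18.0 and 19.1 CPM. Library 3m_3 had 14.1 CPM of Cfd and the other 2 had 148 and 167 CPM.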

How the data were processed

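Lysates of frozen kidney were digested with RNase T1 and RNase S7 to leave ribosome footprints, per the labels' protocols. The authors deposited raw counts per gene with no normalization. Trimming used cutadapt 1.14 and alignment STAR 2.5.3 with mm10, per the submitters' processing notes. The tool that made the counts and its annotation are not given in the sources used here. The 56 columns of the joint table equal the single tables. Of 50222 identifiers, 49998 had a symbol.

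The 7 libraries were fitted together with edgeR 4.0.16 in R 4.3.3 (quasi-likelihood F test, two-sided, robust), after a filterByExpr step that asks for 10 counts and TMM scaling. A gene was called at a Benjamini-Hochberg adjusted p under 0.05. A log2 difference is the middle libraries minus the first, and its SE is the size of the difference over the square root of F. CPM uses the library total, and overlap of ranges uses TMM-scaled CPM. The fit was tested on simulated counts of 14194 genes. It recovered 85% of 100 genes changed by 1 log2 unit and 100% of 100 changed by 2, with 15 false calls. The simulated libraries were independent and their sets were not chosen on values, so the outcome does not bear on how the sets were chosen here. Alternatives were DESeq2 1.42.0, other scalings and filters, more libraries, labelled age as a covariate, and each library left out. Promoters are RefSeq's, searched in Python 3.11.15.

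The members of the comparison, the 34 gene lists and the rules were chosen with earlier results of these data known. Named genes are the 12 highest and 12 lowest log2 differences among genes of at least 5 CPM whose ranges do not overlap, and up to 3 such genes per list, or the 2 of highest level where a list has none. Predicted genes, pseudogenes and antibody variable segments were counted but not named. Other genes in the text are list members or were taken after their values were seen. Replicate numbers were not taken as pairs. RNA libraries were not used beyond the tissue check. A few genes that enter the counts are not reported here by name.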

Additional observations from a re-analysis of the deposited data

Results flagged for a closer look

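In the first libraries, 4 of 134 named genes and list means had a library far from the other 3 by Dixon's test, which flags about 1 in 20 groups by chance. In each of the 4 it was library 1 labelled 20 months. Lcn2 was at 4.28 CPM there and between 1.35 and 1.77 CPM in the others. Cyp2d12 was at 136.1 CPM there, against 80.0 to 88.4 CPM, Myc at 7.07 CPM, against 3.75 to 4.24 CPM, and Ctsc, a lysosomal protease, at 25.8 CPM, against 22.2 to 22.4 CPM.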

How the results depend on the processing

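Against 723 calls (466 higher, 257 lower), the count was 1629 (989 and 640) without a filter on low counts, 490 (324 and 166) with 3m_3 and 3m_4 added as a set of their own, 2 (2 and 0) with 3m_2 added to these, and 25 (16 and 9) with labelled age as a covariate, a fit that rests on the 3 libraries labelled 32 months. Single libraries left out gave 312 to 617 calls (225 to 386 higher, 87 to 231 lower). RLE scaling gave 729, library size only 643, a minimum count of 50 gave 598, leaving out the 10 most abundant genes 720, and DESeq2 869. Protein-coding genes only gave 651 and leaving out mitochondrially encoded genes 723, both chosen after seeing the data. Of the 46 named genes called, 8 to 23 lost the call in a fit that left out 1 library. Of the 54 named genes not called, DESeq2 called 29 and the fit without a filter 23. Of the 100, 0 changed sign under any of the settings run. Most were chosen for ranges of the sets that do not overlap, which left little room for a change of sign. The replicate block gave 656 calls. Deviations of same-numbered libraries correlated between -0.218 and 0.143, and those of differently numbered libraries between -0.205 and 0.229. These ranges overlap and rest on few pairs from sets that mix labelled ages. The correlations therefore cannot decide whether the numbers pair libraries. Transcripts near 1 CPM rest on few counts. The cause of these shifts was not tested.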
